A study of Mus musculus with 20 samples.

Results

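The genes described here are the epidermal growth factor receptor Egfr and 5 of its ligands, Egf, Hbegf, Areg, Ereg and Tgfa. They were chosen by symbol, and all 6 were among the 6025 genes of the deposited table of normalised expression. RNA was sequenced from the renal cortex of wild-type C57BL/6 mice aged 8 weeks, in 20 libraries that the series calls biological replicates, and no transgene or deletion is named for any group. The groups were control kidneys labelled mock (n = 8), which the series describes as mock and vehicle animals together, ischemia-reperfusion injury (IRI) at 24 h (n = 4), rhabdomyolysis at 24 h (n = 4) and cisplatin at 72 h (n = 4). In IRI the renal circulation is interrupted and then restored, in rhabdomyolysis breakdown of skeletal muscle floods the kidney with myoglobin, and cisplatin is a platinum chemotherapy agent with known tubular toxicity. The labels give no ischemia time, cisplatin dose or sex, and nothing about how rhabdomyolysis was induced. The question set by this design is how the transcripts of this receptor system stand in 3 kinds of acute kidney injury.

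The EGF receptor is a membrane tyrosine kinase that starts the RAS and ERK cascade, PI3 kinase and STAT signalling once a ligand binds it. Its ligands are made as membrane-anchored precursors and are released by proteases of the ADAM family. In the healthy kidney Egf is made by the thick ascending limb and the distal convoluted tubule, where it is shed into urine and acts on the magnesium channel Trpm6. Hbegf, Tgfa, Areg and Ereg are ligands known from wounded and inflamed epithelia, and receptor activity in tubule cells is known both for tubular repair and, when it persists, for fibrosis.

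On GRCm38, the build named in the submitters' processing notes, the GENCODE M21 annotation places Egf on chromosome 3 (129677565 to 129755316, minus strand), Tgfa on chromosome 6 (86195223 to 86275719, plus strand) and Egfr on chromosome 11 (16752203 to 16918158, plus strand). Ereg (91074622 to 91093646) and Areg (91139599 to 91148432) are neighbours on the plus strand of chromosome 5, 46.0 kb apart, and the further family ligands Epgn and Btc flank the pair. The values below are gene totals over all exons. The bases upstream of Areg are shown because Areg had no read in any control kidney and because it was the 1 gene with a match among the members whose promoter was searched. RefSeq promoters (GRCm38.p6, 250 bases before to 50 after a start) were held for Egf with 2 starts, Areg, Tgfa and Egfr. They were searched on both strands for TGANTCA (AP-1), TGACGTCA (the cyclic AMP response element, CRE), AACAAT (a SOX core), CACGTG (E-box) and the serum response element, and the CRE before Areg was the 1 match. Capitals mark the CRE, which began 61 bases before the Areg start and is held by 1.79% of 32851 promoters of the same length. The match describes these letters and is no evidence of a bound factor. The stretch lies at chr5:91139349-91139598 on the plus strand.
Areg upstream: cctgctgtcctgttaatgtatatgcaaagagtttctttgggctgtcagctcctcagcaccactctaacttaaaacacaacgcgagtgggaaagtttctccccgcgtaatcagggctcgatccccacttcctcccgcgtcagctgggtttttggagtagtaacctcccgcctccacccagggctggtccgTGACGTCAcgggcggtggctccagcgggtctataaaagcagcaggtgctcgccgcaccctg

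Expression is given in CPM, a unit in which the authors divided the reads of a gene by an effective size of the library. That size ranged from 6.07 M to 10.6 M reads and the table held 3.48 M to 5.40 M reads per library (M, mega). The table is a selection: for every one of its 6025 genes the mean of some injury lay 1.53-fold or more from the mean of all controls, so a call by itself says little here. Library identifiers fall into 2 ranges, so IRI was set against controls 1 to 4, and rhabdomyolysis and cisplatin against controls 5 to 8, which share those 4 controls. The identifiers are the labels' own numbers, and what the ranges stand for is not given. Unless another test is named, p-values come from limma on log2(CPM + 1), a scale on which fold changes of low genes are understated, with Benjamini-Hochberg adjustment over the 5672 genes whose mean reached 1 CPM and a threshold of 0.05. The mean of Ereg lay under that minimum, and its values come from the same model without the minimum. The labels do not say whether animals of a group were treated together.

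In IRI, 4 of the 5 members tested were called, beside 80.7% of all genes tested: Hbegf, Areg and Tgfa higher (40.6% of all genes) and Egf lower (40.1%). In rhabdomyolysis all 5 were called, beside 95.3% of all genes, with Hbegf, Areg, Tgfa and Egfr higher (48.8%) and Egf lower (46.5%). Cisplatin gave those same 5 calls, beside 91.8% of all genes, with 47.8% higher and 44% lower. Without overlap with their 4 matched controls, 3 of the 6 genes lay higher in IRI (33.5% of all genes) and 1 lower (34.2%). In rhabdomyolysis 5 of 6 lay higher without overlap (44.7%) and 1 lower (43%), and in cisplatin likewise 5 (44.3%) and 1 (39.9%). With 6 genes these counts are a description, and Areg and Ereg, at 0 in the controls, could enter the table through injured libraries alone. The plot of CPM by library shows the 6 genes in all 20 mice.

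**Figure D1:**
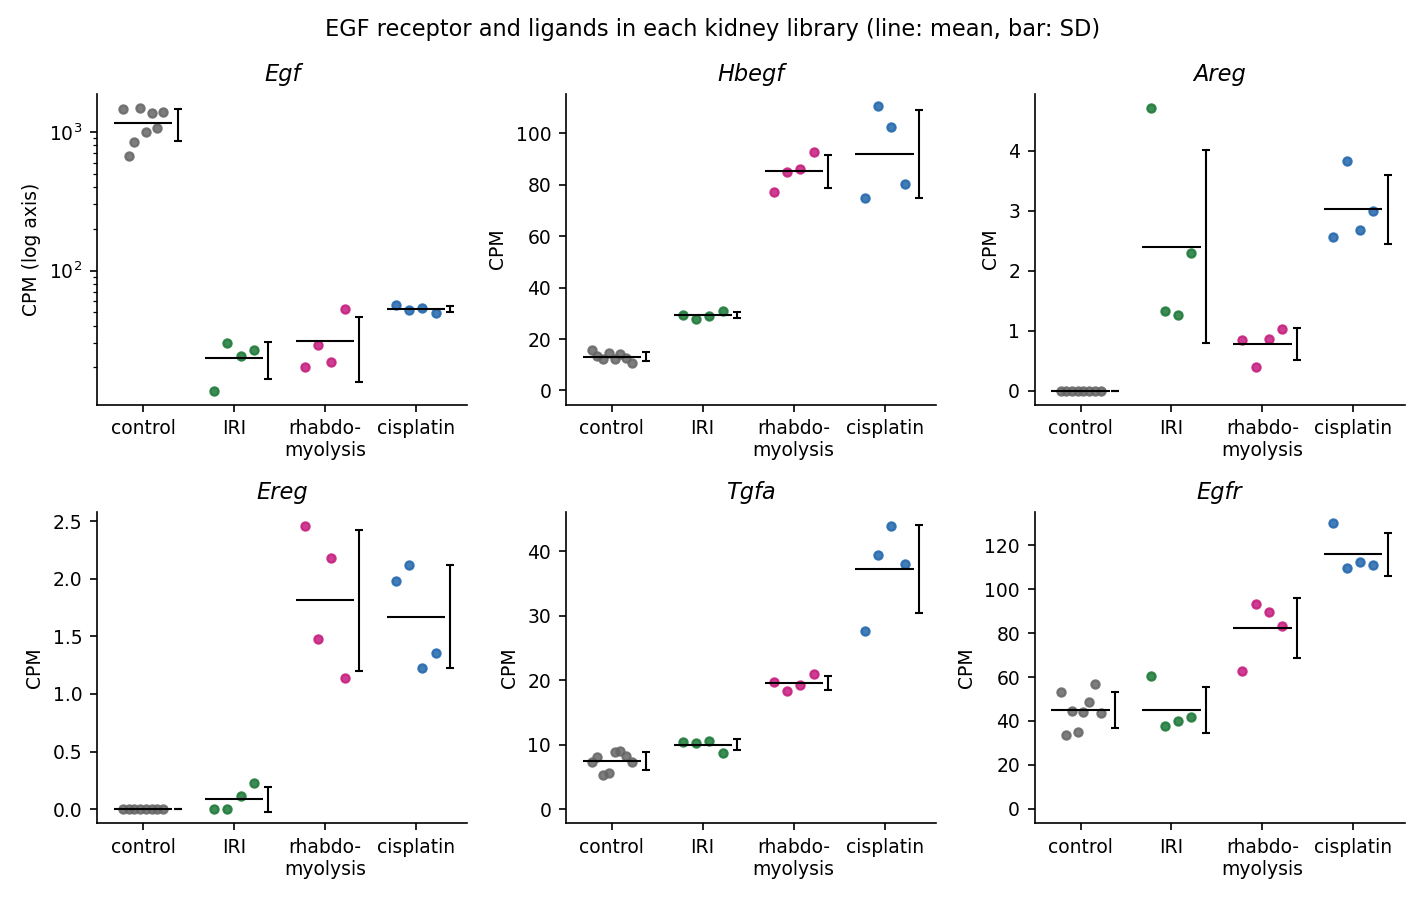
CPM of the 6 genes in each of the 20 libraries (points), by group, with the group mean (line) and SD (bar); the Egf axis is logarithmic and the others are linear. Egf lay at 674 CPM or more in every control and at 56.0 CPM or less in every injured library, while Areg and Ereg were at 0 in all 8 controls.

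Egf, the ligand of the healthy distal nephron, was lost in every injury. Control kidneys held 674 CPM at the lowest, 1216 at the median and 1498 at the highest. The 4 IRI kidneys had 13.6, 29.8, 24.1 and 26.7 CPM, the rhabdomyolysis kidneys 20.2, 28.96, 21.9 and 53.2, and the cisplatin kidneys 56.0, 52.3, 53.7 and 49.5. No injured library came near the control range. The remaining level was 2.096% of the matched control mean in IRI, 2.58% in rhabdomyolysis and 4.39% in cisplatin. In bulk tissue, fewer Egf-producing cells and less Egf RNA per cell cannot be told apart. On the log2 scale the Egf changes were −5.49, −5.32 and −4.47 in that order of injuries (SE 0.27; limma adjusted p 2.31e-13, 8.28e-14 and 2.07e-12). Of the 5672 genes tested, none had a lower log2 fold change than Egf in IRI, where it ranked 1 from the bottom, and it ranked 2 in rhabdomyolysis and 18 in cisplatin. The log2(CPM + 1) scale understates the falls of low genes. In the ratio of mean CPM, the distal tubule marker Pvalb fell more than Egf in IRI and rhabdomyolysis. The cisplatin kidneys were alike, with an SD of 5.18% of their mean, while 1 rhabdomyolysis kidney (mouse 4, 53.2 CPM) lay within the cisplatin range. Among the controls, mice 2 and 3 were lowest at 674 and 851 CPM.

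Hbegf, the heparin-binding ligand of the receptor, rose in every injury. Controls ranged from 10.8 to 15.7 CPM with a median of 12.96. The gene lies on chromosome 18 (36504927 to 36515805, minus strand). The values were 29.4, 27.8, 29.05 and 30.8 CPM in IRI, 77.0, 85.01, 86.1 and 92.9 in rhabdomyolysis, and 74.8, 111, 102 and 80.5 in cisplatin. All 12 injured libraries lay above all 8 controls, and IRI lay below both other injuries without overlap. The mean was 2.09-fold the matched controls in IRI, 6.87-fold in rhabdomyolysis and 7.42-fold in cisplatin. The log2 fold changes were 1.02, 2.69 and 2.78 in the same order (SE 0.12 each; limma adjusted p 2.53e-07, 1.95e-14 and 1.19e-14). IRI kidneys varied little, with an SD of 4.12% of the mean, and cisplatin kidneys varied more, at 18.6%.

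Tgfa, a ligand that binds the same receptor site as Egf, rose least in IRI and most in cisplatin. Controls ranged from 5.29 to 8.98 CPM with a median of 7.67. IRI kidneys had 10.4, 10.3, 10.6 and 8.69 CPM, rhabdomyolysis kidneys 19.7, 18.3, 19.3 and 21.0, and cisplatin kidneys 27.7, 39.5, 43.9 and 37.96. The IRI values lay above their own 4 controls, but the lowest of them, mouse 4, was within the range of all 8. The rises were 1.52-fold, 2.35-fold and 4.47-fold the matched control means. On the log2 scale they were 0.55, 1.14 and 2.02 (SE 0.14 each; limma adjusted p 0.00161, 1.52e-07 and 3.14e-11). The 2 ranges of controls differed in Tgfa by a log2 value of −0.32 (unadjusted p 0.0380, limma adjusted p 0.584), with controls 1 to 4 lower. With all 8 controls, which include the higher range, the exact two-sided permutation p for IRI was 0.0121.

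Areg, which encodes amphiregulin, had 0 reads in each of the 8 control libraries. With 3 reads taken as the limit of a count of 0, this allows up to 0.0533 CPM over the controls together, and it covers counting error only because reads were not tagged by molecule. Of the 6025 genes, 55 (0.913%) had 0 reads in all controls, and 2 of the 6 members, Areg and Ereg, were among them. In IRI the values were 4.72, 1.33, 1.26 and 2.29 CPM (10 to 36 reads per library). Rhabdomyolysis kidneys had 0.851, 0.394, 0.855 and 1.02 CPM (4 to 9 reads) and cisplatin kidneys 2.57, 3.84, 2.68 and 3.00 CPM (22 to 38 reads). Every injured library held reads of Areg. Set against 3 reads in each matched control library, the IRI mean was at least 5.84-fold higher. By the same measure rhabdomyolysis was at least 1.74-fold and cisplatin at least 6.75-fold higher. All 6025 genes of the table lay above 1 CPM in at least 4 libraries, a level that Areg reached in injured libraries alone. Its difference from controls was therefore largely fixed by the choice of genes and is given as a description, with no p-value. IRI kidneys differed most among themselves, with an SD of 67.3% of the mean, and mouse 1 held 36 of the 77 IRI reads.

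Ereg, which encodes epiregulin and lies beside Areg, also had 0 reads in all 8 controls, but it split the injuries differently. The 4 IRI kidneys had 0, 0, 0.115 and 0.229 CPM, 3 reads in all, which is 0.0921 CPM over the group with an exact 95% Poisson interval of 0.0190 to 0.269 (counting error only). Rhabdomyolysis kidneys had 2.46, 1.48, 2.19 and 1.14 CPM (10 to 26 reads) and cisplatin kidneys 1.98, 2.12, 1.23 and 1.36 (11 to 21 reads). The lowest of these 8 values was above the highest IRI value. Against 3 reads in each matched control the rise was at least 4.05-fold in rhabdomyolysis and at least 3.74-fold in cisplatin. Ereg exceeded 1 CPM in the libraries of these 2 groups alone, so these differences too are a description, with no p-value. No fold is given for IRI, where each library held 0 to 2 reads.

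Egfr itself rose in rhabdomyolysis and cisplatin. Controls ranged from 33.6 to 56.9 CPM with a median of 44.3. IRI kidneys had 60.3, 37.6, 40.0 and 41.9 CPM, and 3 of these 4 lay inside the control range. Rhabdomyolysis kidneys had 62.6, 93.3, 89.7 and 83.2 CPM and cisplatin kidneys 130, 109, 112 and 111, all above all controls. Against matched controls the mean of Egfr was 1.08-fold in IRI, 1.70-fold in rhabdomyolysis and 2.39-fold in cisplatin. The log2 fold change in rhabdomyolysis was 0.74 (SE 0.16, limma adjusted p 1.59e-04) and in cisplatin 1.25 (SE 0.16, 2.88e-07). The IRI value was 0.11 with a 95% interval of −0.22 to 0.44 (limma adjusted p 0.526), an interval that does not reach the fitted rise in rhabdomyolysis. The other family receptor in the table, Erbb3, a partner for the ligand Nrg1, was lower than in the matched controls in all 3 injuries, at log2 values of −0.34, −1.48 and −0.89 in the same order (limma adjusted p 0.0384, 4.02e-09 and 1.02e-05), and the IRI call was lost under 10 alternatives, among them those without control 1, 3 or 4 or without IRI mouse 1, 2 or 4.

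Exact two-sided permutation tests of the 4 injured libraries against the 4 matched controls gave p = 0.0286, the smallest that 70 arrangements allow, for Egf, Hbegf and Tgfa in each injury and for Egfr in rhabdomyolysis and cisplatin. For Egfr in IRI the exact p was 0.571. The plot of fold changes with their intervals gathers these results.

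**Figure D2:**
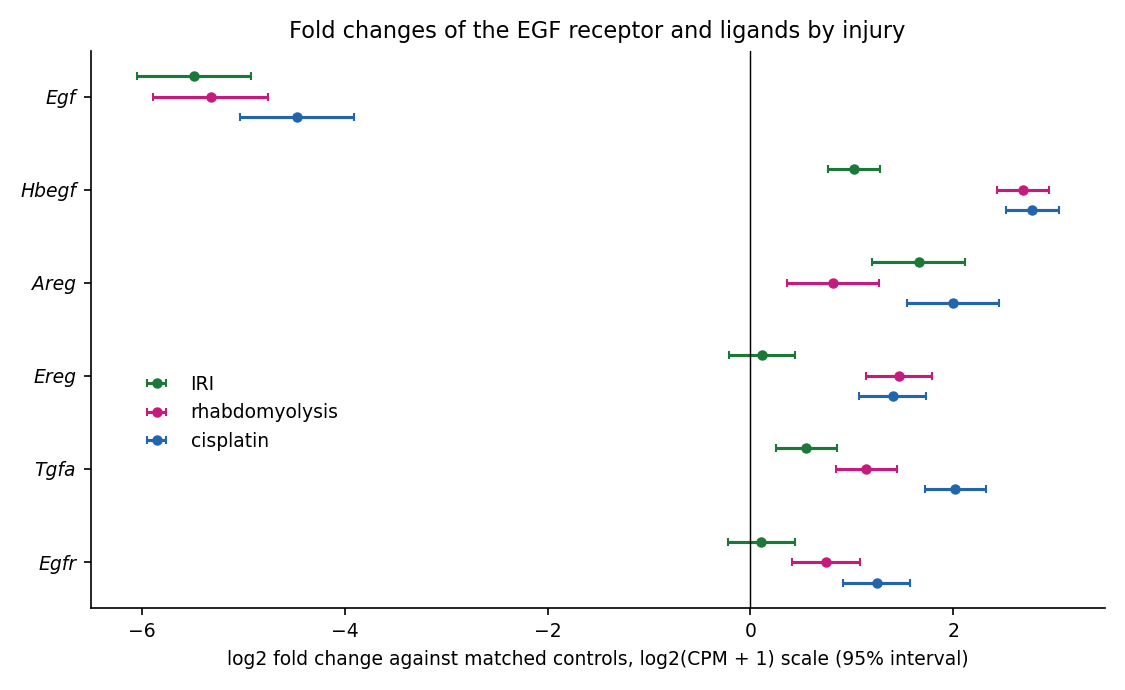
Log2 fold change of each gene against the matched controls on the log2(CPM + 1) scale, with 95% intervals from limma, for IRI, rhabdomyolysis and cisplatin (4 injured and 4 control libraries each). Egf lies at −5.49, −5.32 and −4.47, the other 5 genes lie at or above 0, and the IRI intervals of Ereg and Egfr cross 0. Areg and Ereg were at 0 in all controls and entered the table through injured libraries, so their intervals are a description.

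Within single mice, the same libraries stood out for several members. IRI mouse 1 had the lowest Egf (13.6 CPM) and the highest Areg (4.72 CPM) and Egfr (60.3 CPM) of its group. Rhabdomyolysis mouse 4 had the highest CPM of Egf, Hbegf, Tgfa and Areg in its group and the lowest of Ereg. Its 9 reads of Areg equalled those of mice 1 and 3, and its effective library size (8.81 M) was the lowest of the group. Cisplatin mouse 1 had the lowest Hbegf, Tgfa and Areg of its group and the highest Egf and Egfr. Its Areg value rests on 22 reads, against 24 in cisplatin mouse 3. With 4 mice per group no relation between members was tested.

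The make-up of the ligand transcripts was compared within each library, where scaling between libraries has no part. CPM was divided by the exon length of each gene (11275 bases for Egf, 4834 for Hbegf, 1215 for Areg, 4128 for Ereg and 6490 for Tgfa), and each ligand was expressed as a share of the sum of the 5. In controls Egf held 93.7% to 97.3% of this sum, with a median of 96.3%. Its share was 9.47% to 23.9% in IRI, 8.09% to 16.7% in rhabdomyolysis and 12.4% to 18.2% in cisplatin. Hbegf took the first place in all 12 injured libraries, with 47.6% to 55.4% in IRI, 67.9% to 74.4% in rhabdomyolysis and 56.1% to 61.4% in cisplatin, against 1.76% to 4.34% in controls. Tgfa held 11.2% to 15.01%, 11.4% to 13.7% and 15.6% to 19.7% in the 3 injuries, against 0.632% to 1.94% in controls. Areg held 9.59% to 30.4% in IRI, 1.37% to 3.17% in rhabdomyolysis and 6.26% to 8.47% in cisplatin, and Ereg held at most 2.70% in any library. The shares depend on the gene lengths used. With the longest protein-coding transcript in place of all exons, the median share of Egf was 97.1% in controls, 24.7% in IRI, 11.5% in rhabdomyolysis and 17.8% in cisplatin. The shares of Areg were lower by that measure, at 5.02% to 18.2% in IRI, 0.696% to 1.65% in rhabdomyolysis and 3.31% to 4.52% in cisplatin, and that of Ereg was at most 1.41%.

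**Figure D3:**
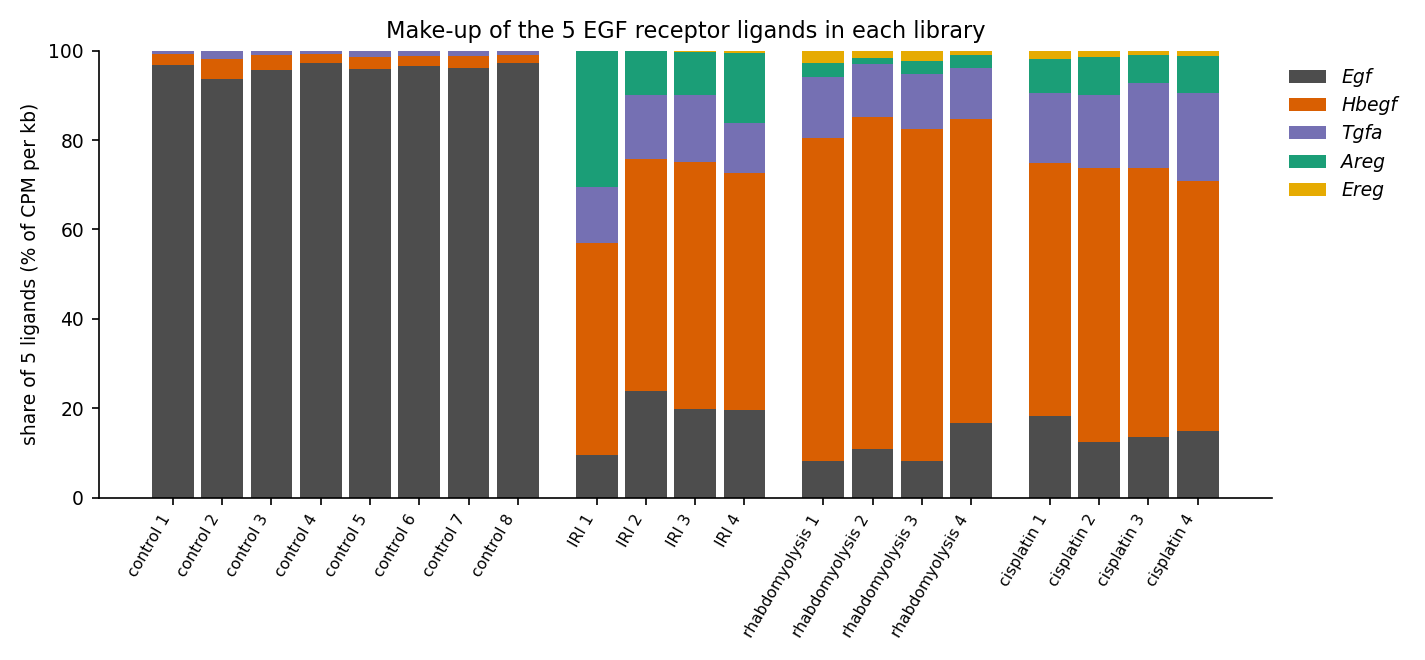
Share of each of the 5 ligands in their summed CPM per kb of exon, in percent, for each of the 20 libraries (stacked bars, grouped by condition). Egf fills 93.7% or more of every control bar and at most 23.9% of any injured bar, where Hbegf is the largest part.

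Ratios of reads within a library, which need no gene length when groups are compared, gave the size of this exchange. The log2 ratio of Hbegf to Egf reads lay between −7.01 and −5.65 in controls, between −0.10 and 1.11 in IRI, between 0.80 and 1.98 in rhabdomyolysis and between 0.42 and 1.08 in cisplatin. Relative to the matched controls the ratio was 98.6-fold higher in IRI, 286-fold in rhabdomyolysis and 166-fold in cisplatin. The ratio of Tgfa to Egf was 72.3-fold, 97.7-fold and 99.8-fold higher. Each of these 6 differences had the smallest two-sided exact permutation p, 0.0286, and 0.0343 after Benjamini-Hochberg adjustment over the 12 ratios computed. Hbegf also rose relative to its receptor, by 1.94-fold, 4.08-fold and 3.06-fold with the same p-values. The ratio of Tgfa to Egfr was 1.84-fold higher in cisplatin (exact p 0.0286, adjusted 0.0343), while in IRI (1.43-fold, exact permutation p 0.114) and rhabdomyolysis (1.39-fold, exact permutation p 0.0571) the difference did not pass. Such ratios show unequal change of a pair of genes and not which of them changed.

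Rhabdomyolysis and cisplatin kidneys were compared directly. Of the 5 members tested 4 were called, beside 54.1% of all genes tested, each of them lower in rhabdomyolysis (32.7% of all genes) and none higher (21.4%). Tgfa was lower by −0.88 on the log2 scale (SE 0.14, limma adjusted p 2.75e-05), Egf by −0.85 (SE 0.27, 0.0112) and Egfr by −0.50 (SE 0.16, 0.0113). Areg, also counted among the 4, was lower by −1.18 (SE 0.22). Its difference is a description with no p-value, because Areg passed 1 CPM mainly in IRI and cisplatin libraries. The exact permutation p was 0.0286 for Tgfa and for Egfr, and 0.0857 for Egf, whose values overlapped between the groups. Hbegf differed by −0.09 with a 95% interval of −0.35 to 0.16, and Ereg by 0.06 with an interval of −0.26 to 0.39 (limma adjusted p 0.540 and 0.758). The Egfr difference missed the threshold without rhabdomyolysis mouse 1 (−0.38, limma adjusted p 0.0569) and in DESeq2 (−0.37, adjusted p 0.0636). Time, at 24 h and 72 h, and the injury cannot be told apart in this comparison.

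Because the IRI libraries lie in the other identifier range, the effects of injuries, each relative to its controls, were compared. Relative to rhabdomyolysis, 4 of the 5 members tested were called, beside 52% of all genes tested, with a lower IRI effect for 3 (23.4% of all genes) and a higher one for 1 (28.6%). Hbegf differed by −1.67 (SE 0.18, limma adjusted p 1.97e-07), Egfr by −0.64 (SE 0.23, 0.0230) and Tgfa by −0.59 (SE 0.20, 0.0200). Areg, the 1 gene counted with a higher IRI effect, differed by 0.84 (SE 0.31). This difference is a description with no p-value, because Areg passed 1 CPM mainly in IRI and cisplatin libraries. Ereg differed by −1.35 (SE 0.22), given with no p-value because the gene is in the table through rhabdomyolysis and cisplatin libraries alone. The Egf effects differed by −0.16 with a 95% interval of −0.96 to 0.63. The Areg difference was 0.55 without IRI mouse 1 and 0.73 without rhabdomyolysis mouse 2, and it was no longer counted as called in either case. The Egfr call was lost without control 1 (−0.51, limma adjusted p 0.0603), IRI mouse 2 (−0.56, 0.0525) or rhabdomyolysis mouse 2 (−0.57, 0.0503).

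Relative to cisplatin, 4 of the 5 were called, beside 30.3% of all genes tested, each with a lower IRI effect (16.8% of all genes) and none with a higher one (13.5%). The differences were −1.76 for Hbegf (SE 0.18, limma adjusted p 1.26e-07), −1.47 for Tgfa (SE 0.20, 1.31e-05), −1.14 for Egfr (SE 0.23, 6.40e-04) and −1.02 for Egf (SE 0.38, 0.0489). The Egf difference stood at the threshold and missed it under 19 of 31 alternatives, among them 13 of the 20 that leave out 1 library, with adjusted p from 9.11e-04 to 0.114. Areg differed by −0.34 with an interval of −0.98 to 0.30 (limma adjusted p 0.431). Ereg differed by −1.29 (SE 0.22), for the same reason with no p-value. For Areg and Ereg all controls were at 0, so these differences between effects rest on the injured libraries alone, and edgeR on the recovered reads gave an adjusted p of 1.00 for Areg in both comparisons. With DESeq2 the Areg difference from rhabdomyolysis did not pass either (adjusted p 0.388).

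Egf was set beside markers of the segments that produce it. Of 26 markers of the thick ascending limb and distal convoluted tubule, 21 were in the table, and the others, Umod among them, are not analysed here. In IRI 21 of 21 were called lower, in rhabdomyolysis 20 and in cisplatin 21, where 40.1%, 46.5% and 44% of all genes tested were called lower. The median of their log2 fold changes was −1.05, −1.40 and −1.68 by injury in that order, and over all genes tested the median was 0.08, 0.31 and 0.30. Egf had a lower log2 fold change than each of the 21 in all 3 injuries. In the ratio of mean CPM, however, 1 marker exceeded Egf in IRI and rhabdomyolysis. This was Pvalb, a calcium-binding protein of the early distal convoluted tubule, which was at 25.9 CPM in controls 1 to 4 and at 0.342 CPM in IRI (2 to 4 reads per library), and at 22.5 CPM in controls 5 to 8 and 0.366 CPM in rhabdomyolysis (0 to 7 reads).

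The other markers of these segments fell unequally. Slc12a1, the sodium transporter of the thick ascending limb, fell by 3.44 on the log2 scale in IRI, by 3.19 in rhabdomyolysis and by 1.94 in cisplatin (limma adjusted p 1.07e-10, 8.17e-11 and 3.26e-07). Slc12a3, the sodium transporter of the distal convoluted tubule, had another order, with −0.81, −0.65 and −2.68 (3.92e-04, 0.00196 and 1.23e-11). Calb1, a calcium buffer of the distal tubule, fell by 2.27, 2.24 and 2.05. Trpm6, the magnesium channel on which Egf acts, fell in IRI (−0.70, limma adjusted p 0.0183) and cisplatin (−0.94, 0.0021), and its rhabdomyolysis value of −0.15 did not pass (0.588). The plot of Egf with these markers shows the distance between Egf and the rest.

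**Figure D4:**
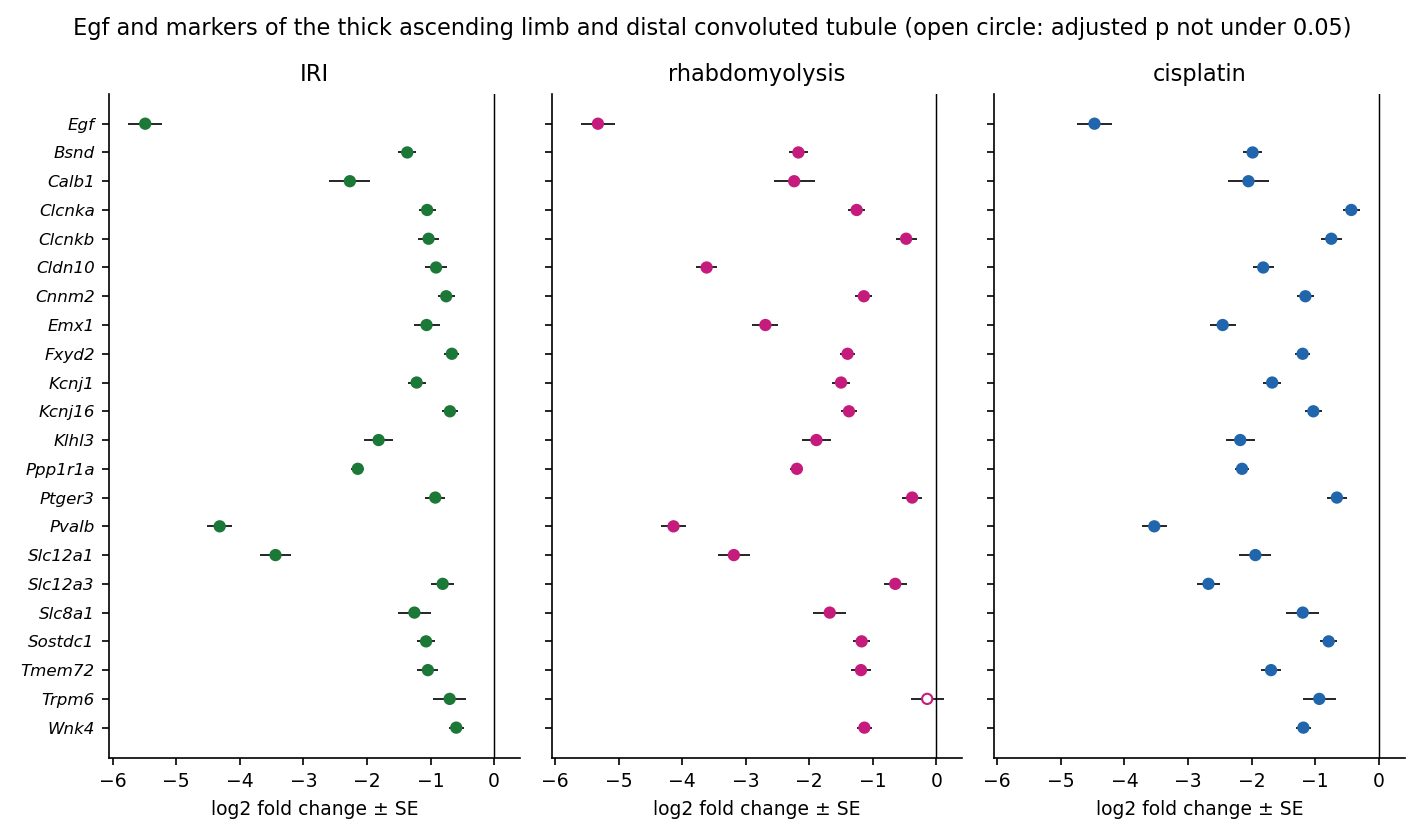
Log2 fold change (± SE) of Egf and of 21 markers of the thick ascending limb and distal convoluted tubule against matched controls, on the log2(CPM + 1) scale, with 1 panel per injury. Egf is leftmost in every panel and Pvalb is next, at −4.32 in IRI, −4.14 in rhabdomyolysis and −3.53 in cisplatin.

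Of 9 genes that act in the release of the ligands, 5 were in the table, and 4, 4 and 3 of them were called higher in IRI, rhabdomyolysis and cisplatin, with 1 lower in each. Beside them 40.6%, 48.8% and 47.8% of all genes tested were called higher, and 80.7%, 95.3% and 91.8% were called in either direction. Rhbdf2, a partner of the sheddase ADAM17, went from 7.79 ± 2.17 CPM (SD, n = 8) in controls to 19.6 ± 2.07, 30.2 ± 5.92 and 46.6 ± 6.68 CPM in IRI, rhabdomyolysis and cisplatin kidneys (SD, n = 4 each). Adam10, a sheddase of the Egf precursor, rose by 0.51, 0.75 and 0.70 on the log2 scale, and the rhomboid protease gene Rhbdl2 by 0.90, 1.97 and 2.15. Adam12, which can shed Hbegf, rose by 2.59 in IRI and 2.65 in rhabdomyolysis, and its cisplatin value of 0.35 did not pass (limma adjusted p 0.319). Timp3, an inhibitor of ADAM17, fell by 0.54, 1.17 and 0.70. After quantile normalization its IRI and cisplatin falls were no longer called. Nrg1, the 1 other family ligand in the table and a ligand of Erbb3, rose from 4.94 ± 2.32 CPM (SD, n = 8) to 19.4 ± 5.81, 20.9 ± 5.49 and 31.2 ± 2.66 (SD, n = 4 each). Its matched controls differed, with a mean of 3.60 CPM for IRI and 6.29 CPM for rhabdomyolysis and cisplatin. Against them the mean was 5.38-fold in IRI, 3.33-fold in rhabdomyolysis and 4.97-fold in cisplatin.

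Among genes that restrain the receptor or its cascade, 8 of 18 were in the table, and 7, 8 and 8 of these 8 were called higher in IRI, rhabdomyolysis and cisplatin, beside 40.6%, 48.8% and 47.8% of all genes tested. The exception was Cblb, a ubiquitin ligase for receptor tyrosine kinases, in IRI (0.29, limma adjusted p 0.0625). Socs3, a feedback inhibitor of STAT3 signalling, rose most, from 2.02 ± 0.689 CPM in controls (SD, n = 8) to 27.2 ± 9.87, 51.6 ± 13.7 and 53.0 ± 11.0 (SD, n = 4 each). The Sprouty genes Spry1, Spry2 and Spry4, feedback inhibitors of the RAS and ERK cascade, rose by 0.35 to 0.91 in IRI, 0.97 to 1.78 in rhabdomyolysis and 0.92 to 1.16 in cisplatin on the log2 scale. The median over the 8 genes was 0.60, 1.33 and 1.02.

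Of 27 genes that relay the signal, 9 were in the table. In each injury 7 were called higher and 2 lower, so all 9 were called, beside 80.7%, 95.3% and 91.8% of all genes tested. Calls in either direction were thus near the background. The 2 lower ones were Gab1, a docking protein of the receptor (−0.58, −1.22 and −0.79), and Pik3ca, a catalytic subunit of PI3 kinase (−0.70, −0.80 and −0.79). Stat3 rose by 1.30, 2.13 and 1.73 and Nras by 0.97, 1.44 and 1.15.

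Of 15 genes known as targets of ERK signalling, 13 were in the table, and all 13 were called higher in each injury, where 40.6%, 48.8% and 47.8% of all genes tested were called higher. Like the other lists, this one was written with earlier results of these data known, so its count is a description. The median log2 fold change of the 13 was 1.19 in IRI, 2.69 in rhabdomyolysis and 2.88 in cisplatin. Spry2, Spry4 and Spred1 stand in this list and in the list of restraining genes. Fosl1, an AP-1 subunit, was at 0.0161 ± 0.0456 CPM in control kidneys (SD, n = 8), so it could enter the table through injured libraries alone. Its IRI level was 8.17 ± 2.83, its rhabdomyolysis level 125 ± 28.0 and its cisplatin level 63.6 ± 10.3 CPM (SD, n = 4 each). Egr1, an immediate early factor, rose from 5.16 ± 1.88 CPM to 21.7 ± 7.32, 124 ± 11.8 and 167 ± 42.4, and Dusp6, an ERK phosphatase, by 0.41, 0.98 and 1.26 on the log2 scale. Rhabdomyolysis and cisplatin differed in 8 of the 13, with 7 higher and 1 lower in rhabdomyolysis (21.4% and 32.7% of all genes tested), which includes Fosl1 (0.95, limma adjusted p 2.03e-04) and Dusp5 (1.00, 1.86e-04), while Etv4 was the lower 1 (−0.60, 0.0220). The relation of these targets to the receptor was not tested.

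**Figure D5:**
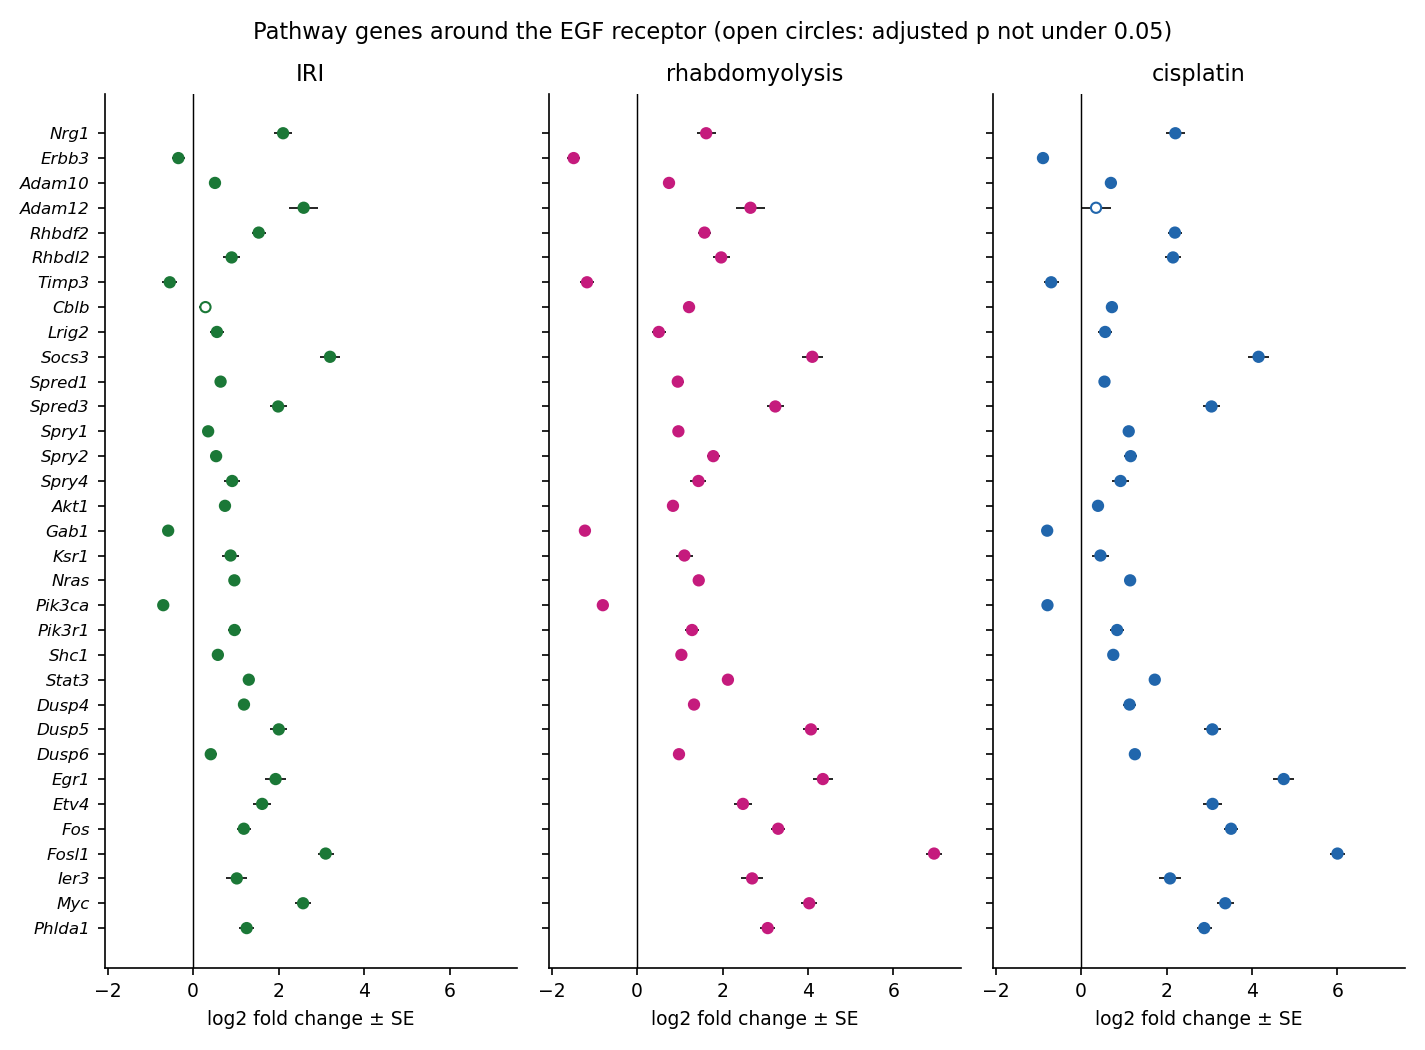
Log2 fold change (± SE) of genes around the EGF receptor against matched controls, with 1 panel per injury; filled circles passed a limma adjusted p of 0.05. Targets of ERK signalling, from Dusp4 to Phlda1 at the bottom and Spred1, Spry2 and Spry4 above, lie right of 0 in every panel, and Erbb3, Timp3, Gab1 and Pik3ca lie left of 0.

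Markers of other cells moved with the injuries as well, in a table where 40.6%, 48.8% and 47.8% of all genes tested were called higher in IRI, rhabdomyolysis and cisplatin, and 40.1%, 46.5% and 44% lower. Proximal tubule markers were called lower in 11, 13 and 13 of 13, and their summed level was 32402 to 57944 CPM in controls and 10515 to 16656 in IRI, 9183 to 10827 in rhabdomyolysis and 5715 to 9696 in cisplatin. Collecting duct markers were lower in 5 of 5 in each injury. Of 11 myeloid markers, which include those of cells able to make Hbegf, Areg and Ereg, 9, 10 and 9 were called higher and 1 lower (Csf1r) in IRI, rhabdomyolysis and cisplatin. Their summed level was 79.0 to 106 CPM in controls, 125 to 154 in IRI, 137 to 282 in rhabdomyolysis and 211 to 309 in cisplatin. Mesenchymal markers were higher in 6 of 6 in each injury, with summed levels of 98.5 to 223 CPM in controls and 438 to 540, 444 to 1286 and 245 to 698 in the injuries. Endothelial markers were higher in 3, 4 and 4 of 4, and podocyte markers in 3, 2 and 2 of 3. Without control 2 the endothelial count in IRI was 1 of 4. Of the lymphoid markers 2 were in the table, with a summed level of 0.458 to 3.73 CPM over all libraries. No marker in the table was at 0 in every library of a group, and the part of these cells in the levels of the ligands and of Egfr was not tested.

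The genes closest to each tested member were found by the mean absolute difference of log2(CPM + 1) values, each gene centred on its own mean over the 20 libraries. For Egf they included Pvalb (0.65) and Gm853 (0.81). Hbegf was followed most closely by Ier5 (0.17), Spsb1 (0.17) and Emp1 (0.17), and Tgfa by Dyrk3 (0.17), Carhsp1 (0.18) and Mdm2, the p53 ubiquitin ligase (0.18). The genes nearest to Areg were Ifngr1 (0.19), Tmcc3 (0.26) and Mad2l2 (0.26), and those nearest to Egfr were the cadherin gene Cdh2 (0.21), Bcar1 (0.22) and Fbxw7 (0.22). Spsb1 had 4.22 CPM in controls and 9.07, 28.2 and 30.3 CPM in IRI, rhabdomyolysis and cisplatin, the same order as Hbegf, and Mdm2 had 47.9, 57.0, 109 and 268 CPM, the same order as Tgfa. The measure is dominated by the difference between injured and control kidneys.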

How the data were processed

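The authors deposited 1 table of CPM values for 20 libraries. Per the submitters' processing notes, the tools were FastQC, Bowtie2 2.1.0, RSEM 1.2.15 and edgeR with GRCm38 and mm10. The annotation, the scaling and the choice of genes are not given in the sources used here. Per the labels' protocols, poly(A) RNA of cortical tissue was made into stranded libraries and sequenced as 150-bp pairs. Columns were matched to mice by the library identifier in the titles. Each column consisted of whole multiples of the value of 1 read, with 100% of values within 0.01 of a whole number. Reads were recovered as value divided by that step. The step of cisplatin mouse 2 is close to 0.1 CPM, so its whole numbers are less certain.

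The model was fitted with limma 3.58.1 in R 4.3.3 on log2(CPM + 1) with 5 cells (controls of each identifier range, 3 injuries), moderated variances and a trend on the mean. Alternatives, with edgeR 4.0.16 and DESeq2 1.42.0 on recovered reads among them, are given at the end. Named genes are the 6 members, genes of the pathway and marker lists, and for each tested member the 3 nearest genes. Of these genes, 2 are not reported here. Members and lists were chosen with earlier results of these data known. The model was tested on simulated data with known changes.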

Additional observations from a re-analysis of the deposited data

Results flagged for a closer look

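Of 22 groups of libraries with differing values of a member, 2 held a library far from the rest, where chance gives about 1 in 20. Tgfa in IRI mouse 4 (8.69 CPM) lay below the other 3, with a gap of 0.836 of the group's range. Egfr in cisplatin mouse 1 (130 CPM) lay above the other 3, with a gap of 0.858 of the range.

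The injuries differed in 12 of the 15 tests made between them on the 5 members tested, each given as a log2 difference. Over all genes tested, 54.1% differed between rhabdomyolysis and cisplatin, 52% between the IRI and rhabdomyolysis effects and 30.3% between the IRI and cisplatin effects. Between rhabdomyolysis and cisplatin kidneys it was −0.85 for Egf, −1.18 for Areg, −0.88 for Tgfa and −0.50 for Egfr. Between the IRI and rhabdomyolysis effects it was −1.67 for Hbegf, 0.84 for Areg, −0.59 for Tgfa and −0.64 for Egfr. Between the IRI and cisplatin effects it was −1.02 for Egf, −1.76 for Hbegf, −1.47 for Tgfa and −1.14 for Egfr. Ereg, with −1.35 between the IRI and rhabdomyolysis effects and −1.29 between the IRI and cisplatin effects, is in the table through rhabdomyolysis and cisplatin libraries alone, so its differences are a description. The Areg differences counted among the 12 are a description too, because Areg passed 1 CPM mainly in IRI and cisplatin libraries. The Egf difference of −1.02 missed the threshold under 19 of 31 alternatives. The time of sampling differs where cisplatin is compared, and the identifier range where IRI is compared, and neither was tested.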

How the results depend on the processing

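Against control, the 11 called folds of Egf, Hbegf, Tgfa and Egfr kept direction and call in every alternative run, and Egfr in IRI was called in none. Between injuries, the Areg and Ereg differences are a description because of the choice of genes. On recovered reads, where all controls are at 0, 3 of them no longer passed the threshold. These were IRI against rhabdomyolysis for Areg (1.60 in edgeR, 1.64 in DESeq2) and for Ereg (−4.11 in edgeR), and IRI against cisplatin for Ereg (−3.98 in edgeR, −4.05 in DESeq2). Egfr between rhabdomyolysis and cisplatin was −0.37 in DESeq2. Egf in IRI against cisplatin missed the threshold at −1.05 (pseudocount of 0.1), −0.98 (75th percentile scaling), −1.06 (quantile), −0.98 (TMM), −1.02 (no trend) and −1.02 (minimum mean of 5 CPM). Leaving out 1 library moved it from −1.23 to −0.79, Areg in IRI against rhabdomyolysis from 0.55 to 1.00, Egfr there from −0.78 to −0.51, and Egfr between rhabdomyolysis and cisplatin from −0.57 to −0.38. The number of members with a higher IRI than rhabdomyolysis effect went from 1 to 0 in edgeR, in DESeq2, with a 5 CPM minimum, which drops Areg, and without single libraries (0 to 1). Pathway genes lower in IRI numbered 2 after quantile normalization, those lower in rhabdomyolysis than in cisplatin 3 with 75th percentile scaling, and those higher there 10 to 16 without single libraries. With all 8 controls the Tgfa to Egfr ratio passed in IRI (0.45) and rhabdomyolysis (0.54) on the log2 scale. Scaling alone moved the median of all genes by −0.27 to 0.13, DESeq2 by up to 0.15, and a minimum mean of 5 CPM by up to −0.69. Replicate numbers did not pair the mice: deviations of same-numbered control and IRI mice correlated from −0.10 to 0.16, and those of rhabdomyolysis and cisplatin mice from −0.20 to 0.32. With the replicate block, 2214 genes were higher and 2197 lower in IRI, 1121 higher and 1713 lower in rhabdomyolysis than cisplatin, and no member changed its call. Controls 5 to 8 share no number with rhabdomyolysis or cisplatin, so no block was fitted there. Depth limits Areg and Ereg.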
